A study of Homo sapiens with 59 samples.

Results

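Hepatocytes supply most of the proteins that carry hormones, vitamins, metals and fatty acids in blood. The genes described here are 10 such carriers and abundant liver secretory proteins, chosen by name: ALB, AFP, GC, TTR, RBP4, TF, SHBG, SERPINA1, AMBP and AHSG. They are 10 of the 60675 genes of the count table. The 59 RNA libraries, in 20 groups, came from HepG2, a long-established cell line from a human liver cancer, sampled after 24 h of treatment. The vehicle group received DMSO, at 0.1% in its sample labels and 2% in the series text, a difference that could not be settled. Wortmannin, which blocks phosphoinositide 3-kinase, was added at 10 uM. The other groups received water extracts of 6 crude drugs at 3 doses each. Coptidis Rhizoma was used at 210, 42 and 8.4 ug/mL. The doses were 500, 100 and 20 ug/mL for Zizyphi Fructus, Scutellariae Radix, Pinelliae Tuber and both forms of ginger, which are Zingiberis Rhizoma Recens, the fresh rhizome, and Zingiberis Rhizoma, the dried one. For wortmannin and the extracts no DMSO content is labelled. Each group held 3 libraries except Pinelliae Tuber 20 ug/mL, which held 2.

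Albumin, the product of ALB, is the main protein of adult plasma and binds fatty acids, bilirubin, hormones and many drugs. Alpha-fetoprotein, the product of AFP, is its fetal counterpart, is silenced in the liver after birth and is made again by many hepatocellular carcinomas. Both belong to one gene family with the vitamin D-binding protein encoded by GC, and all are secreted through the endoplasmic reticulum (ER) and Golgi. In the liver these genes share activators such as HNF4A, the FOXA proteins and C/EBP factors.

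The members lie on several chromosomes (GRCh38, GENCODE release 29). ALB at chr4:73397114-73421412, AFP at chr4:73431138-73456174 and GC at chr4:71741693-71804041 are on chromosome 4. TF is at chr3:133745956-133796640 and AHSG at chr3:186612923-186621318. TTR is at chr18:31557010-31599021, SERPINA1 at chr14:94376747-94390693 and RBP4 at chr10:93591687-93601744. SHBG is at chr17:7613946-7633383 and AMBP at chr9:114060127-114078472. The deposited values are expected counts per gene, estimated by RSEM. Exons of TF overlap those of SRPRB by 112 bases and those of the pseudogene TFP1 by 191 bases on the same strand, so a few reads there are uncertain.

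Promoter windows were taken from RefSeq (GRCh38.p14), which held 8 of the 10 members. The 250 bases before each start were searched on both strands for CCAAT, the core of a general promoter element, whose reverse complement is ATTGG. This motif was chosen after the data were seen. It was found for 5 of the 8 members (ALB, AFP, TF, RBP4 and AMBP), and in 11240 of 35116 windows of the same length (32%), or 10102 of 27305 genes (37%). Counted from the start, matches begin at bases -86 and -44 in ALB, -125 in AFP and -196, -161, -91 and -67 in AMBP. TF (-99) and RBP4 (-149) each have a match at a single start, and windows at their other starts hold none. SERPINA1 has none in either of its windows, which says only that these letters are not there. ALB, AFP and SERPINA1 are shown because they are the 3 members with the most counts in vehicle. AMBP is shown because it was called higher, and in no group lower, against vehicle. Each line gives the 150 bases before the start on the gene's own strand, with matches in capitals.
ALB, plus strand, chr4:73404137-73404286: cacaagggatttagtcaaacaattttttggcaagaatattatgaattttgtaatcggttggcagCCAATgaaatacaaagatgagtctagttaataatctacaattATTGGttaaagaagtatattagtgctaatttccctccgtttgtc
AFP, plus strand, chr4:73436071-73436220: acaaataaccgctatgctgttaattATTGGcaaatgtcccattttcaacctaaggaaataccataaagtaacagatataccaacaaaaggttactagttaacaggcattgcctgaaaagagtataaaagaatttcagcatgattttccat
SERPINA1, minus strand, chr14:94388603-94388752: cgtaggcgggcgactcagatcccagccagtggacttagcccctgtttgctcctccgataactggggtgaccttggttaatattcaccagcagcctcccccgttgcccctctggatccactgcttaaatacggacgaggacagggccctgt
AMBP, minus strand, chr9:114078301-114078450: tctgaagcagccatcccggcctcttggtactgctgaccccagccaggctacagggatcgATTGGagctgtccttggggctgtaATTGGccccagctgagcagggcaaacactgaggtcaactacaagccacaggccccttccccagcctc

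Levels are given as CPM, counts per 1000000 counts of the TMM-scaled library. Total counts per library ran from 21582620 to 31392112, so all members except GC were counted at least 62 times in every library. In vehicle the 10 members took 2.58% of all counts. ALB stood at 10623 ± 278 CPM (SD, n = 3), SERPINA1 at 5272 ± 152, AFP at 3971 ± 93.0, TF at 2294 ± 91.2 and AHSG at 1740 ± 42.5. AMBP stood at 808 ± 17.9 and RBP4 at 514 ± 4.34. TTR and SHBG were far lower, at 53.9 ± 2.82 and 4.68 ± 0.378 CPM. GC was almost absent from these cells, with 0 to 9 counts per library and 179 counts in all 59 libraries together. It was at 0 in 4 libraries, where a count of 0 allows up to 3 counts. GC did not pass the filter on low counts, so 9 of the 10 members were tested.

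Levels of different genes were put in order per length, as CPM per kilobase of exon in vehicle. By the union of exons ALB led with 3146 ± 82.4 CPM per kilobase, followed by AFP (1218 ± 28.6), SERPINA1 (1075 ± 31.0) and AHSG (740 ± 18.1). AMBP (396 ± 8.76) and RBP4 (355 ± 2.99) came next. TF (87.6 ± 3.48), TTR (22.5 ± 1.18), SHBG (2.37 ± 0.192) and GC (0.0763 ± 0.0653) closed the order. No 2 neighbours in this order overlapped over the vehicle libraries. The place of TF rests on its annotation, in which the union of exons is 26199 bases long against a coding length of 2094 bases. By coding length TF rose from place 7 to place 5 with 1096 ± 43.6 CPM per kilobase, SERPINA1 moved from place 3 to place 2, AFP from 2 to 3 and AMBP from 5 to 7. ALB was first, and TTR, SHBG and GC last, by both lengths.

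The HepG2 label was checked against marker genes. All 12 hepatocyte and HepG2 markers were tested, with APOB at 18807 CPM and HNF4A at 351 CPM in vehicle. Of 14 markers of other cell types, 9 passed the filter, and PTPRC, CD3E and DCN were at 0 in every vehicle library and at most 0.0403 CPM in any library. Others of that list were present in vehicle, with ACTA2 at 51.1, CD68 at 29.2, PDGFRB at 9.41 and PECAM1 at 2.94 CPM. ACTA2 and CD68 thus stood above TM4SF5 of the hepatocyte and HepG2 list (20.1 CPM). The replicates of a group differed by more than sampling noise. By a chi-square statistic averaged over genes, 3 libraries were above 15 against both others of their group and are called apart here: dried ginger 500 ug/mL replicate 1, Pinelliae Tuber 100 ug/mL replicate 3 and Zizyphi Fructus 20 ug/mL replicate 1. Coptidis 8.4 ug/mL replicate 3 (10.04 and 14.3) and Scutellariae 20 ug/mL replicate 1 (9.02 and 8.37) also differed more from both others than these did from each other (3.85 and 3.14). Without the former the 4 calls with Coptidis 8.4 ug/mL were kept and SERPINA1 was added (-0.13, adjusted p = 0.0303). Nothing in the labels says that replicates are separate cultures, so the p-values speak only to variation among these samples, possibly technical. All sample titles carry the same batch name, BatchA. They also begin with a number, written as A1 for vehicle and 1 for wortmannin. The gingers share 2, Scutellariae shares 3 with Pinelliae, and Zizyphi shares 4 with Coptidis. What the number stands for is not stated, and if it marks separate experiments, these cannot be told apart from treatment in any extract's comparison with vehicle. Whether A1 and 1 mark the same thing is not stated either, so the same limit may hold for wortmannin. Comparisons of doses within an extract, and of fresh with dried ginger, stay within 1 number.

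**Figure D1:**
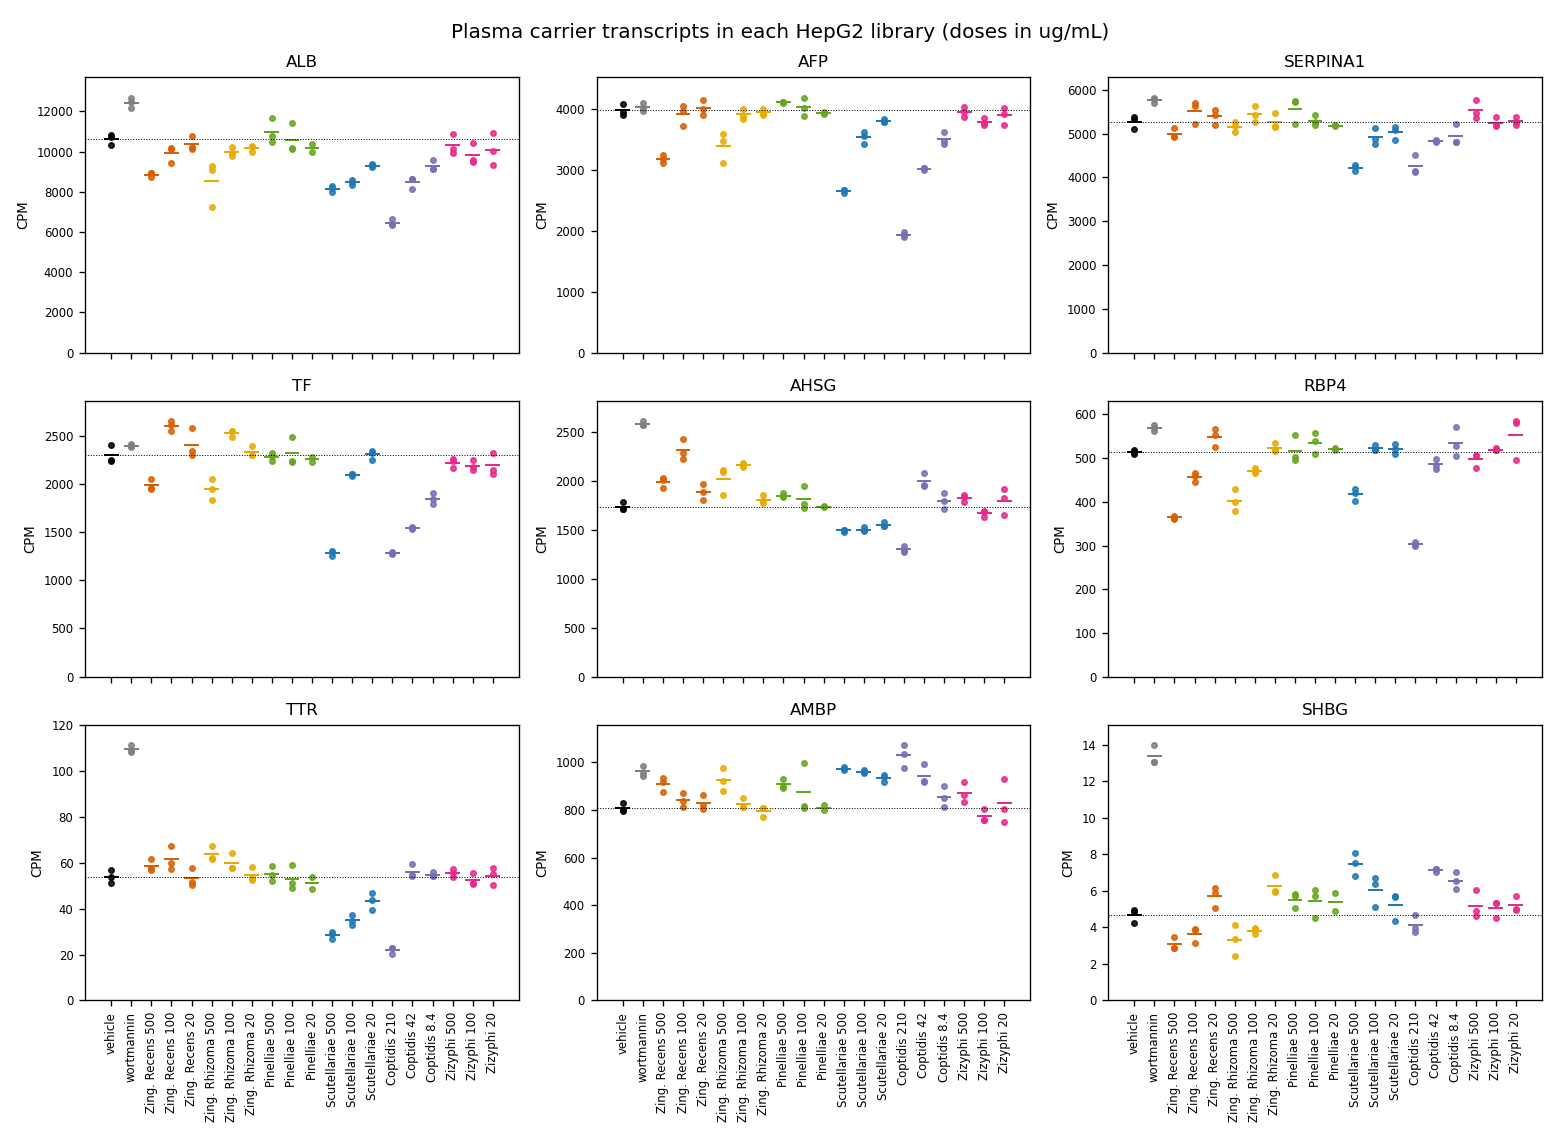
CPM of each tested carrier gene in every library (points), by group along the horizontal axis, with the group mean as a bar and the vehicle mean as a dotted line; every vertical axis starts at 0. TTR and SHBG stand highest with wortmannin (109.6 and 13.4 CPM), and ALB, AFP, TTR, RBP4 and AHSG have their lowest mean with Coptidis 210 ug/mL.

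At their top doses Coptidis and Scutellariae lowered 7 of the 9 tested carriers, the gingers lowered 5 and raised 2 (fresh) or 3 (dried), and wortmannin raised 7. Pinelliae and Zizyphi at 500 ug/mL gave no called member against vehicle, where only 4.57% and 3.61% of all genes were called. AMBP with Pinelliae 500 ug/mL passed in some alternative settings, given below. A gene counts as called where edgeR's quasi-likelihood test gave it a p below 0.05 after Benjamini-Hochberg adjustment. Because all comparisons with vehicle share its 3 libraries, they are given side by side. With Coptidis 210 ug/mL 1 member was called higher and 7 lower of 9 tested, and 34.8% of all tested genes were called higher and 34.5% lower (69.4% in all). With Scutellariae 500 ug/mL 2 were higher and 7 lower, against 24.7% and 25.5% of all genes (50.2% in all). With wortmannin 7 were higher and 0 lower, against 16.2% and 16.0% of all genes (32.2% in all). Neither edgeR at an unadjusted p under 0.05 nor DESeq2 called a member lower with wortmannin. The median log2 change of the 9 members was -0.72 with Coptidis 210 ug/mL, -0.32 with Scutellariae 500 ug/mL and 0.23 with wortmannin, while that of all tested genes was -0.00, 0.01 and 0.02. TMM scaling tends to place the median of all genes near 0, so it is not an independent baseline.

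With fresh ginger 500 ug/mL 2 members were called higher and 5 lower, and with dried ginger 500 ug/mL 3 higher and 5 lower. Of all tested genes, 23.6% were higher and 22.5% lower with the former (46.0% in all), and 21.5% and 20.9% with the latter (42.4% in all). The median log2 change of the members was -0.21 with fresh and -0.23 with dried ginger. At lower doses the direction of the members was mixed. Fresh ginger 100 ug/mL gave 3 members higher and 1 lower, against 12.1% and 10.2% of all genes (22.2% in all). Dried ginger 100 ug/mL gave 2 higher and 1 lower, against 9.76% and 7.75% (17.5% in all). Scutellariae 100 ug/mL gave 2 higher and 5 lower, against 7.28% and 7.36% (14.6% in all), and at 20 ug/mL 1 higher and 3 lower, against 2.58% and 2.18% (4.75% in all). Coptidis 42 ug/mL gave 3 higher and 4 lower, against 23.4% and 23.5% (46.9% in all), and at 8.4 ug/mL 1 higher and 3 lower, against 8.58% and 7.39% (16.0% in all). No member was called by edgeR with fresh ginger 20 ug/mL (5.13% of all genes) or dried ginger 20 ug/mL (0.0841%). At an unadjusted p under 0.05 these comparisons held 3 members (RBP4, SHBG and AHSG) and 1 member (SHBG), and DESeq2 called 0 in both.

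**Figure D2:**
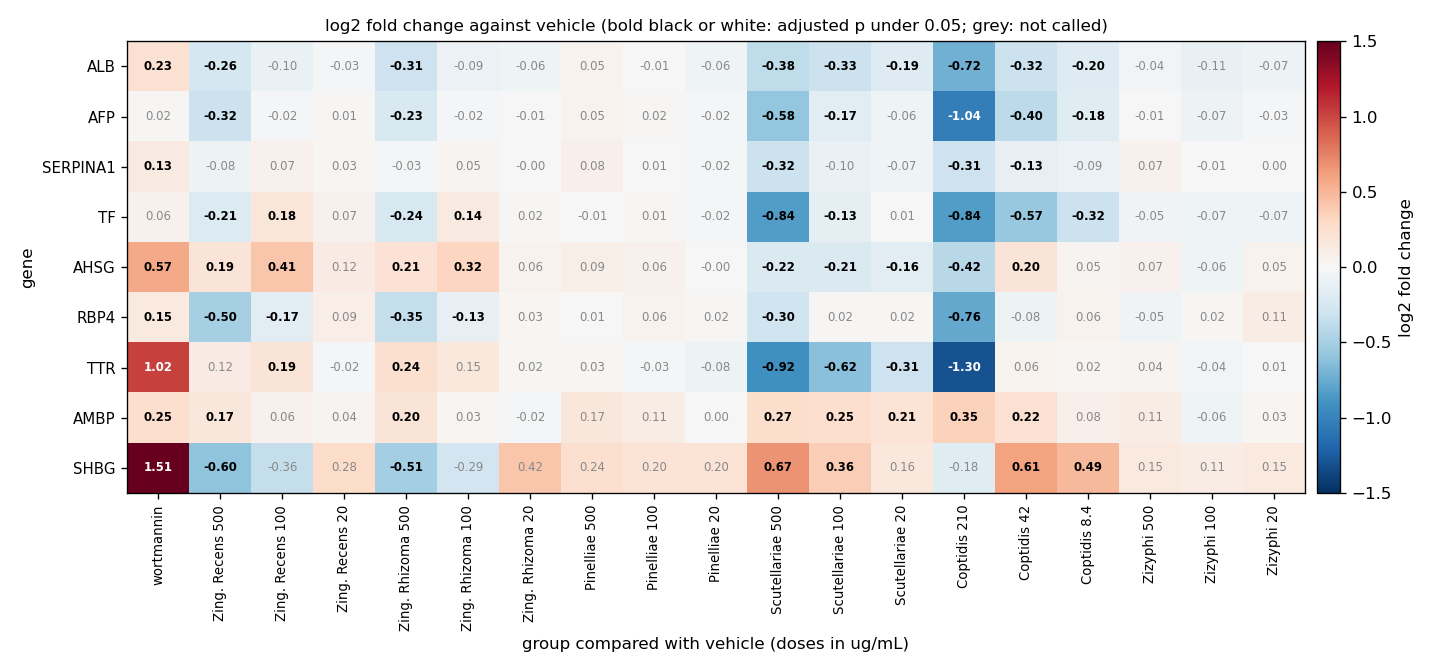
Log2 fold change against vehicle of each of the 9 tested members (rows) in each treated group (columns), coloured from blue (lower) to red (higher); bold black or white values passed an adjusted p of 0.05 and grey values did not. SHBG (1.51) and TTR (1.02) with wortmannin are the highest values, and TTR (-1.30) and AFP (-1.04) with Coptidis 210 ug/mL the lowest.

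Albumin mRNA fell with 4 of the 6 extracts. The vehicle libraries held 10312, 10709 and 10848 CPM of ALB. With Coptidis 210 ug/mL they held 6663, 6325 and 6388 CPM, all below every vehicle library. The log2 change was -0.72 (SE 0.06, adjusted p = 1.9e-16). ALB thus fell by 39.2%. The fall was smaller at lower Coptidis doses, at -0.32 (SE 0.06) with 42 ug/mL and -0.20 (SE 0.05) with 8.4 ug/mL. The top Coptidis dose was also lower than the bottom dose (-0.52, SE 0.06, adjusted p = 8.5e-12). With Scutellariae ALB stood at 8280, 7965 and 8194 CPM at 500 ug/mL (-0.38, adjusted p = 5.8e-08) and was called lower at 100 ug/mL (-0.33) and 20 ug/mL (-0.19). The call at 20 ug/mL had an adjusted p of 0.0286 and was lost without any 1 Scutellariae 20 ug/mL library (0.0595 to 0.0901) and without vehicle replicate 2 (0.0879) or 3 (0.106).

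Both gingers lowered ALB at 500 ug/mL. The fresh ginger libraries held 8741, 8920 and 8917 CPM (-0.26, SE 0.06, adjusted p = 8.5e-05). The dried ginger libraries held 7252, 9274 and 9101 CPM (-0.31, adjusted p = 4.9e-06), and the low one is replicate 1, which stands apart. Without the 3 libraries that stand apart the change was -0.21 (adjusted p = 3.8e-05). Wortmannin moved ALB the other way, to 12152, 12448 and 12683 CPM, above every vehicle library (0.23, SE 0.05, adjusted p = 0.00095).

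AFP, the fetal albumin homologue, had larger log2 changes than ALB at the top doses of Coptidis and Scutellariae, and did not pass the test with wortmannin. The vehicle libraries held 3950, 3890 and 4073 CPM. Coptidis 210 ug/mL libraries held 1969, 1920 and 1898 CPM, all below vehicle. The log2 change was -1.04 (SE 0.04, adjusted p = 2.5e-30), so that AFP fell by 51.4%, and at 42 and 8.4 ug/mL it was -0.40 and -0.18, both called. With Scutellariae 500 ug/mL AFP stood at 2665, 2614 and 2672 CPM (-0.58, SE 0.04, adjusted p = 1.4e-19), and at 100 ug/mL it was -0.17 (adjusted p = 0.0004). At 20 ug/mL the value was -0.06 (adjusted p = 0.38). AFP fell with fresh ginger 500 ug/mL (-0.32, adjusted p = 7.9e-11) and dried ginger 500 ug/mL (-0.23, adjusted p = 4.1e-07). With wortmannin the libraries held 3960, 4013 and 4085 CPM and overlapped vehicle (0.02, SE 0.04, adjusted p = 0.76).

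The log2 ratio of AFP to ALB within a library does not depend on how libraries are scaled. It was -1.42 ± 0.04 in vehicle (SD, n = 3), from -1.46 to -1.38. It lay below every vehicle library with Coptidis 210 ug/mL (-1.74), wortmannin (-1.63) and Scutellariae 500 ug/mL (-1.62). It lay above every vehicle library with Scutellariae 100 ug/mL (-1.26) and 20 ug/mL (-1.29) and with fresh (-1.34) and dried ginger (-1.35) at 100 ug/mL. Thus the ratio stood on opposite sides of vehicle at the high and the lower doses of Scutellariae. The exact permutation test, two-sided, gave p = 0.1 for each of these 7 groups, which is the smallest value that 3 against 3 libraries allow, and 0.271 after adjustment over 19 groups.

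**Figure D3:**
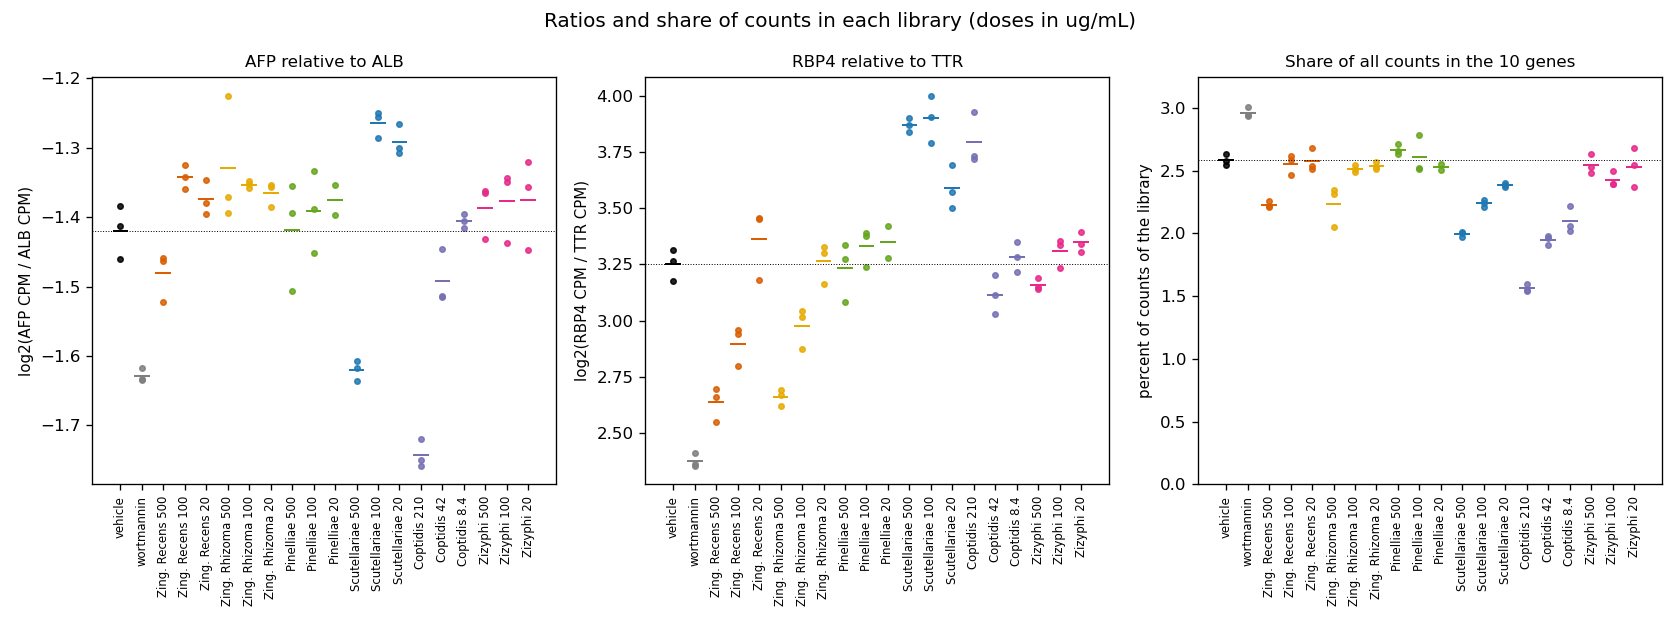
Log2 ratio of AFP to ALB, log2 ratio of RBP4 to TTR and percent of all counts held by the 10 genes, with points for libraries, bars for group means and a dotted line for the vehicle mean; the third vertical axis starts at 0. The share falls from 2.58% in vehicle to 1.56% with Coptidis 210 ug/mL, and the RBP4 to TTR ratio lies below vehicle with wortmannin and the higher ginger doses and above it with Scutellariae.

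Transthyretin (TTR) carries thyroxine and, bound to retinol-binding protein (RBP4), keeps the vitamin A carrier from being lost through the kidney. TTR had the widest range of the members over the groups, 5.01 times between the highest and the lowest mean. Vehicle libraries held 53.9, 51.2 and 56.8 CPM of TTR. Wortmannin libraries held 111.2, 108.2 and 109.3 CPM, a rise of 103% (1.02, SE 0.06, adjusted p = 5.8e-18). TTR thus doubled in every wortmannin library while ALB rose by 17.0%. Scutellariae lowered TTR at each dose, to 26.9, 30.01 and 28.8 CPM at 500 ug/mL (-0.92, SE 0.07, adjusted p = 1.2e-15), with -0.62 at 100 ug/mL and -0.31 at 20 ug/mL. The call at 20 ug/mL (adjusted p = 0.0021) was lost without Scutellariae 20 ug/mL replicate 1 (adjusted p = 0.0551).

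Coptidis lowered TTR at its top dose alone of the 3 tested doses. At 210 ug/mL the libraries held 20.2, 22.6 and 22.7 CPM (-1.30, SE 0.07, adjusted p = 2.2e-21), so that TTR fell by 59.5%. At 42 and 8.4 ug/mL the values were 0.06 (adjusted p = 0.52) and 0.02 (adjusted p = 0.86). The top dose differed from the bottom dose by -1.33 (SE 0.07, adjusted p = 1.4e-21). TTR was higher with dried ginger 500 ug/mL (0.24, adjusted p = 0.0026), where all 3 libraries lay above vehicle. With fresh ginger it was called at 100 ug/mL (0.19, adjusted p = 0.032) but not at 500 ug/mL (0.12, adjusted p = 0.14). The call at 100 ug/mL was lost without vehicle replicate 1 (0.0861) or 2 (0.180) or fresh ginger 100 ug/mL replicate 2 (0.303).

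RBP4 fell most with Coptidis 210 ug/mL and the gingers. Vehicle libraries held 518, 510 and 514 CPM and those of Coptidis 210 ug/mL 308, 301 and 300 CPM (-0.76, SE 0.05, adjusted p = 9.9e-21). Fresh ginger 500 ug/mL libraries held 364, 361 and 367 CPM (-0.50, SE 0.04, adjusted p = 1.8e-13) and dried ginger 500 ug/mL libraries 429, 379 and 400 CPM (-0.35, adjusted p = 4.1e-09). All 9 of these libraries lay below vehicle. RBP4 was also lower with fresh ginger 100 ug/mL (-0.17, adjusted p = 0.0037). The call with dried ginger 100 ug/mL (-0.13, adjusted p = 0.0435) was lost without any 1 library of either group, with adjusted p from 0.0652 to 0.125. With Scutellariae RBP4 was lower at 500 ug/mL (-0.30, adjusted p = 1.2e-07) and at 0.02 at both lower doses. With wortmannin it was higher (0.15, adjusted p = 0.0091).

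Because TTR and RBP4 moved unequally, their log2 ratio shifted. RBP4 to TTR stood at 3.25 in vehicle and at 2.38 with wortmannin. It stood at 2.64 and 2.90 with fresh ginger at 500 and 100 ug/mL and at 2.66 and 2.98 with dried ginger at the same doses. In all 5 groups every library lay below vehicle. It lay above vehicle with Scutellariae at 500, 100 and 20 ug/mL (3.87, 3.90 and 3.59) and with Coptidis 210 ug/mL (3.79). The exact permutation test, two-sided, gave p = 0.1 for each of these 9 groups, the smallest possible value, and 0.211 after adjustment over 19 groups.

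Transferrin (TF) delivers iron to cells through the transferrin receptor. Its vehicle libraries held 2241, 2242 and 2399 CPM. Coptidis lowered TF at every dose, to 1296, 1267 and 1287 CPM at 210 ug/mL (-0.84, SE 0.04, adjusted p = 1.1e-24), with -0.57 at 42 ug/mL and -0.32 at 8.4 ug/mL. At 8.4 ug/mL the libraries held 1839, 1786 and 1900 CPM, all below vehicle (adjusted p = 2.1e-08). Scutellariae 500 ug/mL libraries held 1303, 1254 and 1294 CPM (-0.84, adjusted p = 5.1e-24), so that TF fell by 44.1%. At 100 ug/mL TF was at -0.13 (adjusted p = 0.0134), a call lost without vehicle replicate 3 (0.129), without Scutellariae 100 ug/mL replicate 3 (0.0504) and without the filter on low counts (0.0619). At 20 ug/mL it was at 0.01 (adjusted p = 0.96).

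With the gingers TF was called in opposite directions at 2 doses. Fresh ginger lowered it at 500 ug/mL (-0.21, SE 0.04, adjusted p = 1.3e-05) and raised it at 100 ug/mL (0.18, SE 0.04, adjusted p = 0.00032). The libraries held 1945, 2045 and 1959 CPM at 500 ug/mL and 2611, 2647 and 2550 CPM at 100 ug/mL, so each of the former lay below and each of the latter above vehicle. Dried ginger gave -0.24 (adjusted p = 1.3e-06) at 500 ug/mL and 0.14 (adjusted p = 0.0084) at 100 ug/mL, the latter lost without vehicle replicate 1 (0.0674) or 2 (0.0654). Of the receptor genes, TFRC, the receptor for iron uptake, was higher with fresh ginger 500 ug/mL (0.58) and Scutellariae 500 ug/mL (0.21). TFR2, the second transferrin receptor and an iron sensor of hepatocytes, was lower with both (-0.53 and -0.33) and with Coptidis 210 ug/mL (-1.13), and higher with wortmannin (0.76).

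SHBG, sex hormone-binding globulin, carries testosterone and estradiol. It was the least abundant tested member, with 62 to 382 counts per library, and its standard errors were the widest. Vehicle libraries held 4.93, 4.86 and 4.25 CPM. Wortmannin libraries held 13.1, 13.98 and 13.1 CPM (1.51, SE 0.12, adjusted p = 8.8e-15), a rise of 185%. SHBG was thus near 3 times its vehicle level in each wortmannin library. It was higher with Scutellariae 500 ug/mL (8.09, 7.52 and 6.81 CPM, 0.67, adjusted p = 1.1e-05), Coptidis 42 ug/mL (0.61, adjusted p = 7.1e-05) and Coptidis 8.4 ug/mL (0.49, adjusted p = 0.0051). With Coptidis 210 ug/mL it was at -0.18 (adjusted p = 0.25), and lower than with 8.4 ug/mL (-0.67, SE 0.13, adjusted p = 1.5e-05). The call with Scutellariae 100 ug/mL (0.36, adjusted p = 0.0477) was lost without any vehicle library (0.0672 to 0.189) and without Scutellariae 100 ug/mL replicate 2 (0.203) or 3 (0.155).

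The gingers lowered SHBG at the top dose. Fresh ginger 500 ug/mL libraries held 2.89, 2.88 and 3.46 CPM (-0.60, SE 0.15, adjusted p = 0.00056). Dried ginger 500 ug/mL libraries held 4.10, 3.35 and 2.43 CPM (-0.51, SE 0.14, adjusted p = 0.0028), a call lost without replicate 3 (-0.34, adjusted p = 0.0636). Between top and bottom dose the change was -0.88 with fresh ginger (SE 0.14, adjusted p = 6.5e-07) and -0.93 with the dried form (SE 0.13, adjusted p = 1.2e-07). SAT2 and FXR2 lie on the opposite strand within the SHBG locus without shared exon bases. Whether the counting used strand is not known.

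SERPINA1 encodes alpha-1 antitrypsin, the inhibitor of neutrophil elastase, and was the steadiest member after AMBP. Its highest and lowest group means differed by 1.37 times. Vehicle libraries held 5388, 5099 and 5328 CPM. It was lower with Scutellariae 500 ug/mL (4154, 4275 and 4234 CPM, -0.32, SE 0.04, adjusted p = 9.7e-10) and Coptidis 210 ug/mL (4144, 4507 and 4124 CPM, -0.31, adjusted p = 1.2e-09). In both groups every library lay below vehicle. It was also lower with Coptidis 42 ug/mL (-0.13, adjusted p = 0.0064). The rise with wortmannin (0.13, adjusted p = 0.0068) was lost without vehicle replicate 2 (0.10, adjusted p = 0.0748). With fresh and dried ginger 500 ug/mL it was at -0.08 (adjusted p = 0.10) and -0.03 (adjusted p = 0.56).

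AMBP encodes a precursor that is cut into alpha-1-microglobulin, a scavenger of heme and radicals, and bikunin, the light chain of the inter-alpha-trypsin inhibitors. It was called higher in 8 of 19 comparisons with vehicle and lower in 0, while none of the other 8 tested members was without a call in the lower direction. These comparisons share the vehicle libraries and include several doses of one extract, so the 8 calls are not separate results. How many of all tested genes were called higher in several comparisons and never lower was not counted. At an unadjusted p under 0.05, and by DESeq2, no comparison with vehicle had AMBP lower. Vehicle libraries held 797, 798 and 829 CPM. Coptidis 210 ug/mL libraries held 1072, 978 and 1037 CPM (0.35, SE 0.06, adjusted p = 2.7e-07). The Scutellariae libraries lay above vehicle at each dose, with log2 changes of 0.27, 0.25 and 0.21. The call at 20 ug/mL (adjusted p = 0.0175) was lost without vehicle replicate 1 or 2 (0.0834 and 0.0770) and without Scutellariae 20 ug/mL replicate 1 or 3 (0.0800 and 0.0595). Between Scutellariae 500 and 20 ug/mL AMBP was not called (1.04 times).

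AMBP was also higher with Coptidis 42 ug/mL (0.22), dried ginger 500 ug/mL (0.20, adjusted p = 0.0032) and wortmannin (0.25, adjusted p = 0.00029). The call with fresh ginger 500 ug/mL (0.17, adjusted p = 0.0107) was lost without replicate 2 of that group (0.14, adjusted p = 0.0671). With Pinelliae 500 ug/mL it missed the threshold (0.17, SE 0.06, adjusted p = 0.072). The libraries there held 891, 899 and 932 CPM, all above vehicle. That value passed with DESeq2 (adjusted p = 0.0467), without the filter on low counts (0.0125), in a fit of these 2 groups (0.0145) and without the 3 libraries that stand apart (0.0036). It was not called in any fit that left out 1 library of either group. The genes of 2 heavy chains of the same inhibitor family, ITIH1 and ITIH2, were higher with wortmannin (0.98 and 0.22), as AMBP was, and lower with Coptidis 210 ug/mL (-1.14 and -0.48), Scutellariae 500 ug/mL (-0.66 and -0.22) and fresh ginger 500 ug/mL (-0.65 and -0.18). These 2 were picked with their values in view, and the other listed genes of this family, ITIH3 and ITIH4, are not described here.

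AHSG encodes fetuin-A, which binds calcium phosphate in plasma. Vehicle libraries held 1713, 1718 and 1789 CPM. Wortmannin libraries held 2579, 2571 and 2611 CPM (0.57, SE 0.04, adjusted p = 3.8e-15), a rise of 48.7%. Fresh ginger raised it at 100 ug/mL (2291, 2429 and 2227 CPM, 0.41, adjusted p = 8.1e-11) and less at the top dose (0.19, adjusted p = 0.00021). Dried ginger raised it by 0.32 at 100 ug/mL (adjusted p = 1.2e-07) and by 0.21 at the top dose (adjusted p = 5.6e-05). In both gingers the value at 100 ug/mL was thus above that at 500 ug/mL, a difference that was not tested.

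AHSG went in opposite directions with 2 doses of Coptidis. At 42 ug/mL its libraries held 2082, 1957 and 1953 CPM (0.20, SE 0.04, adjusted p = 0.00014). At 210 ug/mL they held 1338, 1276 and 1297 CPM (-0.42, SE 0.04, adjusted p = 4.3e-12). The former all lay above and the latter all below vehicle. With Scutellariae it was lower at each dose, by -0.22, -0.21 and -0.16. The call at 20 ug/mL (adjusted p = 0.0178) was lost without vehicle replicate 3 (0.0928) and without Scutellariae 20 ug/mL replicate 1 (0.0775) or 2 (0.0693).

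**Figure D4:**
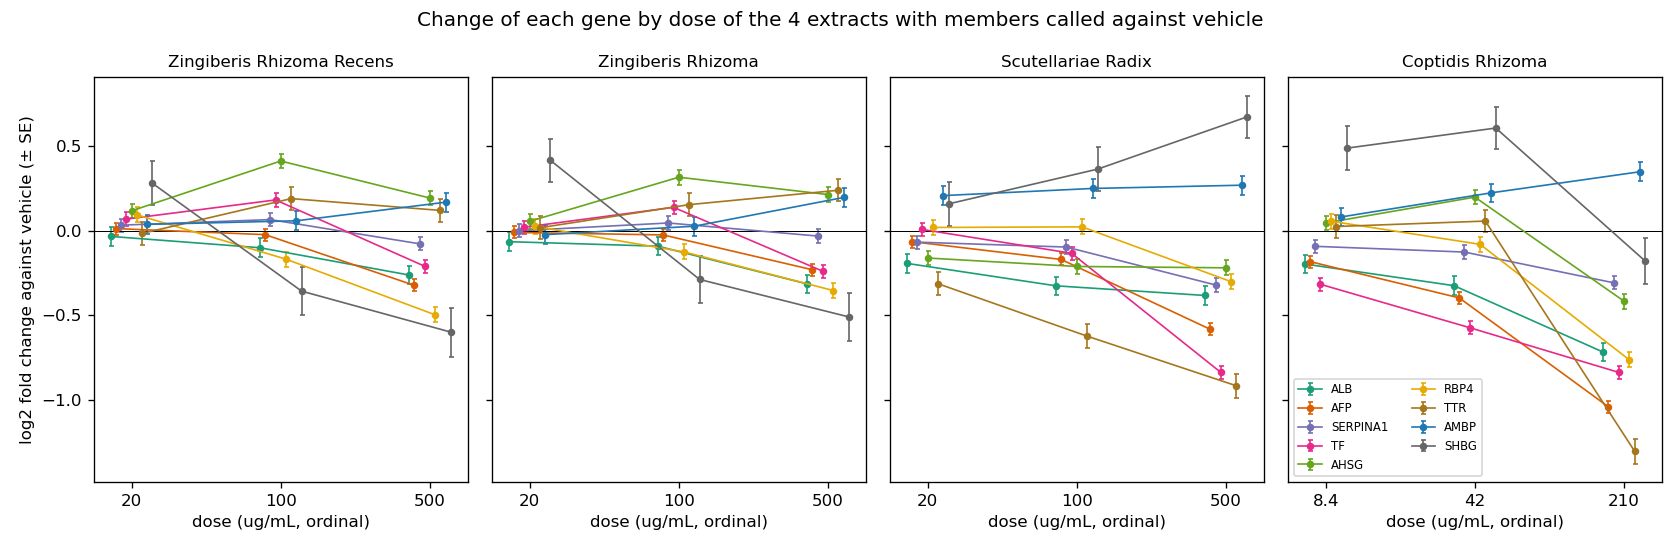
Log2 fold change against vehicle (± SE) of each tested member at the 3 doses of each of 4 extracts, with doses in ug/mL spaced evenly. TF changes sign between 100 and 500 ug/mL with both gingers and AHSG between 42 and 210 ug/mL with Coptidis, and SHBG falls between the bottom and top dose in both gingers and Coptidis but rises with Scutellariae.

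The comparison of top with bottom dose, which does not use vehicle, gave the following. With Coptidis 1 member was higher and 8 lower at 210 than at 8.4 ug/mL, against 32.9% and 32.8% of all genes (65.8% in all). AMBP (0.27) was the higher one. With Scutellariae 1 was higher (SHBG, 0.51) and 6 lower, against 24.5% and 25.4% of all genes (49.9% in all). TF differed most (-0.85, SE 0.04, adjusted p = 4.1e-24), followed by TTR (-0.60) and AFP (-0.52). With fresh ginger 1 was higher and 6 lower, against 24.4% and 23.6% of all genes (48.0% in all). With dried ginger 3 were higher and 5 lower, against 20.9% and 20.1% (40.9% in all). The fresh ginger calls of AMBP (0.13, adjusted p = 0.0473) and SERPINA1 (-0.11, adjusted p = 0.0171) were lost without single libraries. For AMBP these were fresh ginger 20 ug/mL replicate 1 (0.168) or 3 (0.125) and 500 ug/mL replicate 2 (0.176) or 3 (0.125), and for SERPINA1 20 ug/mL replicate 2 (0.0644). SERPINA1 was also lost without the filter on low counts (0.0539).

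Pinelliae 500 ug/mL differed from 20 ug/mL in no member by edgeR (1.90% of all genes called). At an unadjusted p under 0.05 there were 2 members, SERPINA1 and AMBP, and DESeq2 called 0. Zizyphi 500 ug/mL differed from 20 ug/mL in 1 member, RBP4 (-0.15, SE 0.04, adjusted p = 0.0244), where 2.82% of all genes were called lower and 4.39% higher (7.22% in all). That call was lost without the 3 libraries that stand apart (-0.12, adjusted p = 0.195), in a fit of the 2 groups (0.478) and without Zizyphi 20 ug/mL replicate 1 (0.296) or 2 (0.138) or 500 ug/mL replicate 2 (0.156).

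Against vehicle, Pinelliae and Zizyphi moved no member past the threshold at any dose by edgeR. Of all genes 4.57%, 0.204% and 0.00601% were called with Pinelliae at 500, 100 and 20 ug/mL, and 3.61%, 0.294% and 1.99% with Zizyphi. At an unadjusted p under 0.05 there were 2 members with Pinelliae 500 ug/mL (AMBP and AHSG), 1 with 100 ug/mL (AMBP), 1 with Zizyphi 100 ug/mL (ALB) and 1 with 20 ug/mL (RBP4). DESeq2 called 1 member, AMBP with Pinelliae 500 ug/mL. Leaving out Zizyphi 20 ug/mL replicate 3 brought RBP4 past the threshold (adjusted p = 0.0043). A missed threshold does not show that levels were equal. The 95% intervals of the log2 change (from the model's standard errors, not adjusted for the number of genes) lay between -0.23 and 0.28 for the 8 members other than SHBG in these 6 groups, and with SHBG reached 0.50.

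Fresh and dried ginger are 2 preparations of ginger rhizome, and their extracts were given at the same ug/mL. The labels do not say whether both came from the same material. By edgeR no member differed between them at 500, 100 or 20 ug/mL, where 1.83%, 0.379% and 0.0481% of all genes were called. At an unadjusted p under 0.05 there were 2 members at 500 ug/mL (AFP and RBP4), 1 at 100 ug/mL (AHSG) and 0 at 20 ug/mL. DESeq2 called RBP4 at 500 ug/mL and no other. RBP4 was at -0.14 in fresh against dried ginger (SE 0.04, adjusted p = 0.088) and was called without dried ginger 500 ug/mL replicate 2 (0.0198). AFP was at -0.09 (adjusted p = 0.21) and reached -0.16 (adjusted p = 0.0026) without the 3 libraries that stand apart, of which dried ginger 500 ug/mL replicate 1 is one. The 95% intervals of the 8 members other than SHBG lay between -0.25 and 0.16 at 500 ug/mL, -0.13 and 0.18 at 100 ug/mL, and -0.17 and 0.17 at 20 ug/mL. With SHBG they lay between -0.40 and 0.22, -0.36 and 0.23, and -0.38 and 0.17.

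The share of all counts in the 10 members was 2.55%, 2.58% and 2.63% in the vehicle libraries. It was lower in every library of Coptidis 210 (mean 1.56%), 42 (1.95%) and 8.4 ug/mL (2.10%) and of Scutellariae 500 (1.99%), 100 (2.24%) and 20 ug/mL (2.39%). With fresh and dried ginger 500 ug/mL it was 2.23% and 2.24%, and with Zizyphi 100 ug/mL 2.43%, again below vehicle in every library. It was above every vehicle library with wortmannin (2.96%) and Pinelliae 500 ug/mL (2.67%). The exact permutation test, two-sided, gave p = 0.1 for each of these groups, the smallest possible, and 0.158 after adjustment over 19 groups. This share is of unscaled totals, unlike the CPM values. As summed CPM of the TMM-scaled library, the falls with Coptidis were smaller. The sum was 25281 CPM in vehicle, and it fell by 34.4% at 210 ug/mL, 15.5% at 42 ug/mL and 9.81% at 8.4 ug/mL, where the unscaled share fell by 39.6%, 24.5% and 18.8%. The groups named here kept their side of vehicle in every library on both scales. With dried ginger 100 ug/mL the unscaled share was below vehicle (2.52%) but the scaled sum overlapped it (25367 CPM). With Pinelliae 20 ug/mL the scaled sum was below vehicle in both libraries (24674 CPM) but the unscaled share overlapped it. In such bulk samples fewer expressing cells and less RNA per cell cannot be told apart.

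Over the 20 group means of log2(CPM + 1), ALB, AFP, TF and SERPINA1 ran closely together. Pearson's r was 0.91 between ALB and AFP, 0.92 between AFP and TF and 0.92 between TF and SERPINA1. It was 0.89 between SERPINA1 and ALB and 0.89 between SERPINA1 and AFP. The r of ALB with TF (0.82) was below that of TTR with SERPINA1 (0.84) and of AFP with RBP4 (0.84). TTR ran with AHSG (0.92) more than with its partner RBP4 (0.53). AMBP was negatively related to AFP (-0.67), TF (-0.64) and ALB (-0.55), and the highest r of SHBG with another member was 0.53, with RBP4. These are descriptions over 20 points that include several doses of one extract and share one cell line. Among 9403 other genes with a mean of at least 10 CPM, the one most like ALB was ITIH2 (r = 0.98) and the one most like AFP was CPB2, a secreted carboxypeptidase (0.99). They were HPN, a membrane serine protease of hepatocytes, for TTR (0.94) and ANG, the secreted ribonuclease angiogenin, for SERPINA1 (0.96). For TF the gene was ZNF395 (0.95), for RBP4 DCXR (0.98), for SHBG WDR59 (0.91), for AMBP the pyruvate carboxylase gene PC (0.91) and for AHSG ARHGAP1 (0.90).

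Other plasma carriers and binding proteins of the liver were followed as a list of 20 genes, of which 18 were tested. With Coptidis 210 ug/mL 1 was higher and 14 lower (median log2 change -0.68). With Scutellariae 500 ug/mL 2 were higher and 15 lower (-0.42), while fresh ginger 500 ug/mL gave 1 and 14 (-0.44) and dried ginger 500 ug/mL 1 and 13 (-0.34). Of all tested genes, 69.4%, 50.2%, 46.0% and 42.4% were called in these comparisons, and their median change was within 0.01 of 0, where TMM scaling tends to place it. The shares called higher and lower were, in that order, 34.8% and 34.5%, 24.7% and 25.5%, 23.6% and 22.5%, and 21.5% and 20.9%. HPX, the heme carrier hemopexin, fell with Coptidis (-1.69), Scutellariae (-1.25) and fresh ginger (-1.28), and also with wortmannin (-0.69). AFM, the vitamin E-binding member of the albumin family, fell with Coptidis (-2.21), Scutellariae (-1.74) and fresh ginger (-1.18). CP, the copper carrier ceruloplasmin, was the one gene of this list higher with fresh ginger (1.38) and was lower with Coptidis (-0.43) and Scutellariae (-0.28). With wortmannin 10 genes of the list were higher and 3 lower (16.2% and 16.0% of all genes), with SERPINA6, the cortisol carrier, at 0.65.

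Among receptors and partners of the members 17 of 18 matched genes were tested. With Coptidis 210 ug/mL 3 were higher and 11 lower (median -0.48), against 34.8% and 34.5% of all genes, and with Scutellariae 500 ug/mL 2 and 10 (-0.30), against 24.7% and 25.5%. With fresh ginger 500 ug/mL 4 were higher and 11 lower (-0.18), against 23.6% and 22.5%, and with dried ginger 5 and 8 (-0.14), against 21.5% and 20.9%. With wortmannin 8 were higher and 2 lower (0.22), against 16.2% and 16.0%. FCGRT, the receptor that rescues albumin from degradation, moved in the direction of ALB, at -0.67 for Coptidis, -0.30 for Scutellariae, -0.28 for fresh ginger and 0.26 for wortmannin.

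Of 22 transcription factors known from the albumin and AFP loci, all were tested. With Scutellariae 500 ug/mL 4 were higher and 15 lower (median -0.37), with fresh ginger 500 ug/mL 4 and 11 (-0.17), with Coptidis 210 ug/mL 10 and 10 (-0.03) and with wortmannin 3 and 2 (-0.00). Of all tested genes, 50.2%, 46.0%, 69.4% and 32.2% were called in these comparisons. By direction, 24.7% were higher and 25.5% lower with Scutellariae, and 23.6% and 22.5% with fresh ginger. The shares were 34.8% and 34.5% with Coptidis, and 16.2% and 16.0% with wortmannin. Dried ginger 500 ug/mL gave 5 factors higher and 12 lower (-0.21), against 21.5% and 20.9% of all genes. CEBPA, a C/EBP activator of liver genes, was lower with Coptidis (-1.98), Scutellariae (-1.66) and fresh ginger (-1.15), whereas its relative CEBPB was higher (2.42, 1.45 and 0.47). ZBTB20, a repressor of AFP, was higher with Coptidis (1.32), Scutellariae (0.65) and fresh ginger (0.90). With wortmannin CEBPA was at 0.08 and ZBTB20 at -0.03, neither of them called. The factors named here were picked with their values in view, and a link from them to ALB or AFP was not tested.

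All 26 genes of ER entry and export of secreted cargo were tested. With Coptidis 210 ug/mL 3 were higher and 18 lower (median -0.24), and with Scutellariae 500 ug/mL 2 and 16 (-0.13), against 34.8% and 34.5% of all genes with the former and 24.7% and 25.5% with the latter. With fresh ginger 500 ug/mL 13 were higher and 3 lower (0.09), against 23.6% and 22.5%, and with dried ginger 10 and 3 (0.04), against 21.5% and 20.9%. SURF4, a cargo receptor of ER export, was at -0.71 with Coptidis, -0.36 with Scutellariae and -0.09 with fresh ginger, all called. LMAN1, a lectin receptor of ER export, was lower with Coptidis (-0.46) and Scutellariae (-0.22) and higher with fresh ginger (0.25). SEC61G, a subunit of the ER translocation channel, was higher with fresh ginger (0.57). With wortmannin 3 genes were higher and 4 lower, against 16.2% and 16.0% of all genes.

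The 14 markers of other cell types summed to 94.4 to 98.3 CPM in vehicle, 131 to 141 CPM with Scutellariae 500 ug/mL and 135 to 152 CPM with Coptidis 210 ug/mL. Their sum was mostly CD68 and ACTA2. The other 12 markers together summed to 15.4 to 18.2 CPM in vehicle, and to less with Scutellariae 500 ug/mL (9.02 to 10.4 CPM) and Coptidis 210 ug/mL (12.6 to 13.9 CPM). Of the 9 tested, 2 were higher and 5 lower with Scutellariae 500 ug/mL (median -0.67), against 24.7% and 25.5% of all genes. With Coptidis 210 ug/mL 1 was higher and 3 lower (-0.56), against 34.8% and 34.5%. With wortmannin, where most members rose, the sum was 112 to 114 CPM, of which 21.5 to 23.3 CPM from the other 12. There 4 of the 9 were higher and 1 lower (0.48), against 16.2% and 16.0% of all genes. CD68, a lysosomal protein abundant in macrophages, was higher with Coptidis (1.42), fresh ginger 500 ug/mL (0.71), Scutellariae (0.63) and wortmannin (0.39), and ACTA2, smooth muscle actin, was higher with Scutellariae (0.69) and lower with fresh ginger (-0.64). PTPRC and CD3E, which define leukocytes and T cells, reached at most 0.0364 CPM in any library. The summed level of the 12 hepatocyte and HepG2 markers was 28878 to 28969 CPM in vehicle, 18737 to 19315 CPM with Scutellariae 500 ug/mL and 16664 to 17917 CPM with Coptidis 210 ug/mL. APOB, at 18807 CPM in vehicle, made up most of that sum. With Coptidis 210 ug/mL 5 of the 12 were called higher and 7 lower (median -0.60), against 34.8% and 34.5% of all genes. With Scutellariae 500 ug/mL 2 were higher and 9 lower (-0.46), against 24.7% and 25.5%. The part of these shifts in the results was not tested.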

How the data were processed

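The authors made the deposited expected counts per gene with RSEM 1.3.3, and FastQC 0.11.9, Trim Galore 0.6.5 and STAR 2.7.3a are also named, with build GRCh38, per the submitters' processing notes. Their gene annotation and strand setting: not given in the sources used here. Libraries came from a directional mRNA kit read as pairs of 100 bases, per the labels' protocols. Of 267 columns of the table, 59 matched the samples and 208 were not used. Counts were rounded to whole numbers, filtered with filterByExpr (16641 genes), scaled by TMM and tested with edgeR 4.0.16 (limma 3.58.1, R 4.3.3) in 1 quasi-likelihood model of 20 group means with 39 residual degrees of freedom. It gave 28 comparisons: 19 with vehicle, 6 of top with bottom dose and 3 of fresh with dried ginger. P-values were adjusted by Benjamini-Hochberg over all tested genes. The script was tested on simulated data. Alternatives included DESeq2 1.42.0. The members and gene lists were chosen with earlier results of these data known. The rule for named genes took all members, the 3 genes most similar to each by Pearson's r (the first is printed), and up to 4 genes of a list per sentence, which were picked with their values in view. Of the listed genes, 1 receptor matched no symbol.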

Additional observations from a re-analysis of the deposited data

How the results depend on the processing

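Of 252 tests of a member in 28 comparisons, 100 were called. In 85 of these the call was kept, with the same direction, under every alternative tried (RLE scaling, DESeq2, no filter on low counts, a fit of only the 2 groups, a replicate block, leaving out the 3 libraries that stand apart, and leaving out each library of the groups compared). The other 15 lost the call in at least 1 alternative, 0 were called in the opposite direction, and 17 of 152 uncalled tests were called in some alternative. The number of members called moved by more than 1.5 times in these cases. In a fit of the 2 groups it was 5 with dried ginger 100 ug/mL (3 as reported), 1 with Pinelliae 500 ug/mL (0) and 0 between Zizyphi 500 and 20 ug/mL (1). It was 1 with Pinelliae 500 ug/mL without the filter on low counts and with DESeq2, and 1 with DESeq2 between fresh and dried ginger at 500 ug/mL. Without the 3 libraries that stand apart it was 1 with fresh ginger 20 ug/mL, with Pinelliae 500 ug/mL against vehicle and against 20 ug/mL, and between the gingers at 500 ug/mL. Leaving out each library in turn gave 1 to 2 members with dried ginger 100 ug/mL, 0 to 3 with Scutellariae 20 ug/mL (4 as reported), and 0 to 1 with Zizyphi 20 ug/mL, between Zizyphi doses and between the gingers at 500 ug/mL. The cause was not tested.

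No strong pairing of libraries by replicate number was seen, though a weaker one could be missed. The correlation of same-numbered deviations was between -0.117 and 0.184, and in 0 of 28 comparisons was every pair above 0.1. With the replicate block 9 members were called with Scutellariae 500 ug/mL, 8 with Coptidis 210 ug/mL and 7 with wortmannin, as without it, and the block changed no other count of members. The 2 log2 ratios and the share of counts moved by less than the spread between replicates when single libraries were left out or differences were taken within replicate numbers. As a share of the TMM-scaled library, added after the data were seen, the difference from vehicle in percentage points was -0.87, -0.39 and -0.25 with Coptidis 210, 42 and 8.4 ug/mL, -0.29 with fresh ginger 500 ug/mL and 0.00865 with dried ginger 100 ug/mL, and the 14 other groups moved by less than the spread between replicates. The order of levels per length by the longest transcript was that by the union of exons. The order by coding length was added after the data were seen.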
